A study of Homo sapiens with 14 samples.

Results

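The genes described here are 46 genes of G2/M and mitosis, the last stage of the cell cycle before division and division itself. They were taken as the rows of the deposited count table whose symbol is on a list of 46 names. All 46 were found among 36555 gene IDs and all passed the filter on low counts, which left 22179 genes to test, so no member is missing from the counts given here. They fall into 7 roles: 3 genes of proliferation and chromosome structure, 7 of the CDK1 switch, 5 mitotic kinases, 7 of the spindle checkpoint and anaphase ubiquitylation, 7 of centromere and kinetochore, 8 kinesins and 9 of spindle assembly and cytokinesis.

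Cells enter mitosis when the kinase CDK1, bound to cyclin A or B, is released from inhibitory phosphorylation by CDC25 phosphatases, and PLK1 and the Aurora kinases then build and check the spindle. The spindle checkpoint holds back CDC20 and the anaphase-promoting complex until every kinetochore is attached, after which cyclin B and securin (PTTG1) are destroyed. Most of these genes are transcribed periodically, late in the cycle, through the MuvB complex with MYBL2 and FOXM1 and through promoter elements called CHR and CCAAT boxes, so in bulk RNA they are high where many cells are dividing.

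RNA was sequenced from wild-type HT-29, an established line of human colorectal carcinoma, to ask how the ferroptosis inhibitors ferrostatin-1 and liproxstatin-1 act on cells dying from TNF. Control cells were kept in medium with 0.1% DMSO (3 libraries). The other groups received 20 uM ferrostatin-1 (2 libraries), 20 uM liproxstatin-1 (2), recombinant human TNF at 100 ug/ml as labelled (2), TNF with ferrostatin-1 (3) or TNF with liproxstatin-1 (2), for 72 h at the same doses. All groups are 1 cell line, and the design calls its replicates technical, so p-values measure only the spread between these libraries. Libraries are named here by group and the number of their count column. In such bulk libraries fewer dividing cells and less RNA of these genes per cell cannot be told apart.

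Promoter windows of 5 members are printed, with marks on the letters of the promoter elements through which this group is known to be read. The windows run from 250 bases before to 50 after the RefSeq transcript start on GRCh38.p14, 5′ to 3′ on the strand of the gene, and capitals mark the CHR letters TTTGAA or TTCGAA and the CCAAT letters, on either strand (so CCAAT also appears as ATTGG). MKI67 lies at chr10:128126374-128126673, minus strand. CCNB2 lies at chr15:59104896-59105195, plus strand. PLK1 lies at chr16:23678639-23678938, plus strand. PRC1 lies at chr15:90994486-90994785, minus strand. AURKB lies at chr17:8210176-8210475, minus strand.
MKI67: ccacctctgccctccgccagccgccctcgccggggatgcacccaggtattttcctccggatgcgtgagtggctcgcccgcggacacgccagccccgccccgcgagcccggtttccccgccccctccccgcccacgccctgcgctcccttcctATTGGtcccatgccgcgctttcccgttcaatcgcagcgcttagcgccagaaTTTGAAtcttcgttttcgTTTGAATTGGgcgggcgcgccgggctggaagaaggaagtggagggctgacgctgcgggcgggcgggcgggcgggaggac
CCNB2: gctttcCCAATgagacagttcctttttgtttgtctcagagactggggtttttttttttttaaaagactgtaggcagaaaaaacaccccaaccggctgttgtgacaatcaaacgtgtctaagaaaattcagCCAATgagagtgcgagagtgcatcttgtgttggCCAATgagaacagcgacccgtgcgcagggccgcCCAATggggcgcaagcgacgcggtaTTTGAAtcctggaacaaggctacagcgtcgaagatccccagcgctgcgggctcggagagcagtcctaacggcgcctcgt
PLK1: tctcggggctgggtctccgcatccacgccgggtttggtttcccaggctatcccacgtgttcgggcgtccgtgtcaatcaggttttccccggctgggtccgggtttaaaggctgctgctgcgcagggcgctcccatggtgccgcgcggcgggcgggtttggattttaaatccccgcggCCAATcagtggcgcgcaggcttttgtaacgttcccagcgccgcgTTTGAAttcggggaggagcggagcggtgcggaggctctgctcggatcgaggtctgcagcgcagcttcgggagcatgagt
PRC1: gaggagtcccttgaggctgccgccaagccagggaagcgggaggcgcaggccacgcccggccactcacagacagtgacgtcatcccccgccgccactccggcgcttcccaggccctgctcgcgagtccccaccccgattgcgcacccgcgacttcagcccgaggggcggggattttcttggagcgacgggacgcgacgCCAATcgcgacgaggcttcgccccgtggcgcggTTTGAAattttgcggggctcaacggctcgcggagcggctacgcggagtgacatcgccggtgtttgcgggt
AURKB: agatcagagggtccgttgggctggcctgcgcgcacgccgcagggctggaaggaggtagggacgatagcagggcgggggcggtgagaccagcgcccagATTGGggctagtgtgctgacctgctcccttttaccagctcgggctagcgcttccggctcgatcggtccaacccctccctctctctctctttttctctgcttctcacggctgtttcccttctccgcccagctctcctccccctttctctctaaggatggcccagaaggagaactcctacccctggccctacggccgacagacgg
The CHR letters nearest the start began 29 bases before it in MKI67, CCNB2 and PLK1, and 20 bases before it in PRC1. In MKI67 the TTTGAA at that place overlaps an ATTGG by 1 base. AURKB has 2 windows in RefSeq, of which the first is printed, and neither held CHR letters. The printed one holds an ATTGG 153 bases before the start. It lies inside the span that the count table gives for AURKB (8204733 to 8210600), as does that of PLK1 for its gene (23677656 to 23690366). Of the 39 members with a window in the RefSeq table, 31 (79.5%) held CHR letters, against 15.8% of 12835 tested genes with a window. CCAAT letters were in 32 members (82.1%), against 42.2% of those genes, and both stood in 1 window in 26 members (66.7%), against 6.5%. FOXM1, AURKA, TTK, BUB3, UBE2C, BIRC5 and TPX2 had no window in the table. A match of letters is a description and not a measured binding site.

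Libraries held 59913850 to 75838597 counts, and scaling factors lay between 0.947 and 1.05. Epithelial markers, EPCAM and keratins among them, summed to 9938 to 14240 CPM (counts scaled to a common library size). Most of the sum was KRT8 (4740 to 7439 CPM) and KRT18 (2539 to 4322). CDX1 stayed under 1 CPM, and CDX2 (4.65 to 12.4) and CEACAM5 (2.37 to 9.15) were low. The 6 fibroblast markers summed to 3.61 to 13.4 CPM in the controls, 24.8 and 45.7 in the TNF libraries and 2.59 to 15.7 elsewhere, the 5 endothelial ones to 0.861 to 49.0 in all, and the 5 leukocyte markers in the table to 794.9 to 1214. Most of the leukocyte sum was LYZ, lysozyme, at 784.1 to 1185 CPM, with CD14 at 8.60 to 13.1 and ITGAM at 0.199 to 23.4 CPM, while PTPRC, the pan-leukocyte marker, was at most at 0.0539. The part of these markers in the results was not tested. The TNF libraries stood apart from each other more than the libraries of any other group (chi-square per degree of freedom 200.3, against 14.45 to 74.17 elsewhere), and their difference bears directly on the genes described here. Relative to the control mean, the mean log2 level of the 46 members was -0.98 in TNF library 1 and 0.02 in TNF library 3. In TNF library 1 the 23 members with the shorter transcripts had a median of 0.24 and the 23 longer ones a median of -1.92. The same 2 sets had medians of 0.27 and -0.12 in TNF library 3. Across the 46 members the level relative to controls correlated with the log2 length of the longest coding transcript at r = -0.66 in TNF library 1 and r = -0.74 in library 3, as a description over genes of 1 library. In the 9 libraries with an inhibitor, with or without TNF, that r lay between -0.26 and 0.44, and in the 3 controls between -0.44 and 0.57. Over all genes the quartile with the longest transcripts had a median of -0.31 in TNF library 1 and -0.03 in TNF library 3. The part of transcript length in the results was not tested beyond the length correction given with them. Counts of members called in comparisons with TNF alone are given with and without library 1. TNF library 3 also shows the relation with length among the members, so leaving out library 1 does not remove it.

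**Figure D1:**
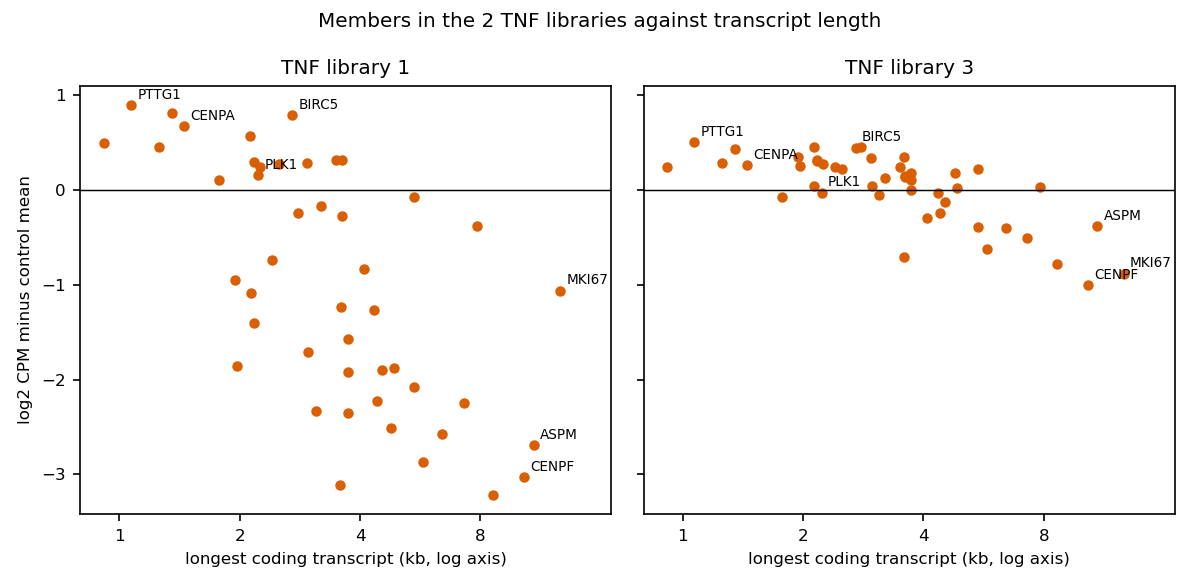
Level of the 46 members in TNF library 1 (left) and TNF library 3 (right), as log2 normalized CPM minus the mean of the 3 controls, against the length of the longest coding transcript (kb, log axis). Each point is 1 gene. In library 1 long transcripts such as CENPF (-3.03) and ASPM (-2.69) lie far below 0 and short ones such as PTTG1 (0.89) above it. In library 3 the same slope is shallower.

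Levels of different genes were compared only on the authors' FPKM, which is per length. In the controls UBE2C, the E2 enzyme of the anaphase-promoting complex, stood highest at 82.8 ± 15.4 FPKM (SD, n = 3), followed by TPX2, an activator of Aurora A, at 68.1 ± 11.8 and CDC20, the activator of the anaphase-promoting complex, at 60.1 ± 2.33. TPX2 overlapped both of its neighbours within their spread. CCNB1 had 52.6 ± 11.3, TOP2A 49.5 ± 11.4, CCNB2 33.9 ± 8.69, FOXM1 32.5 ± 2.09, MKI67 25.1 ± 2.10, PLK1 24.2 ± 2.47, CDK1 20.5 ± 3.09, AURKB 17.8 ± 1.68 and BIRC5 12.8 ± 3.92 FPKM. The lowest members were KIF14 at 2.91 ± 0.444 and CENPE at 2.72 ± 0.153, both motor proteins. Every member was thus expressed in unstimulated HT-29 cells.

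**Figure D2:**
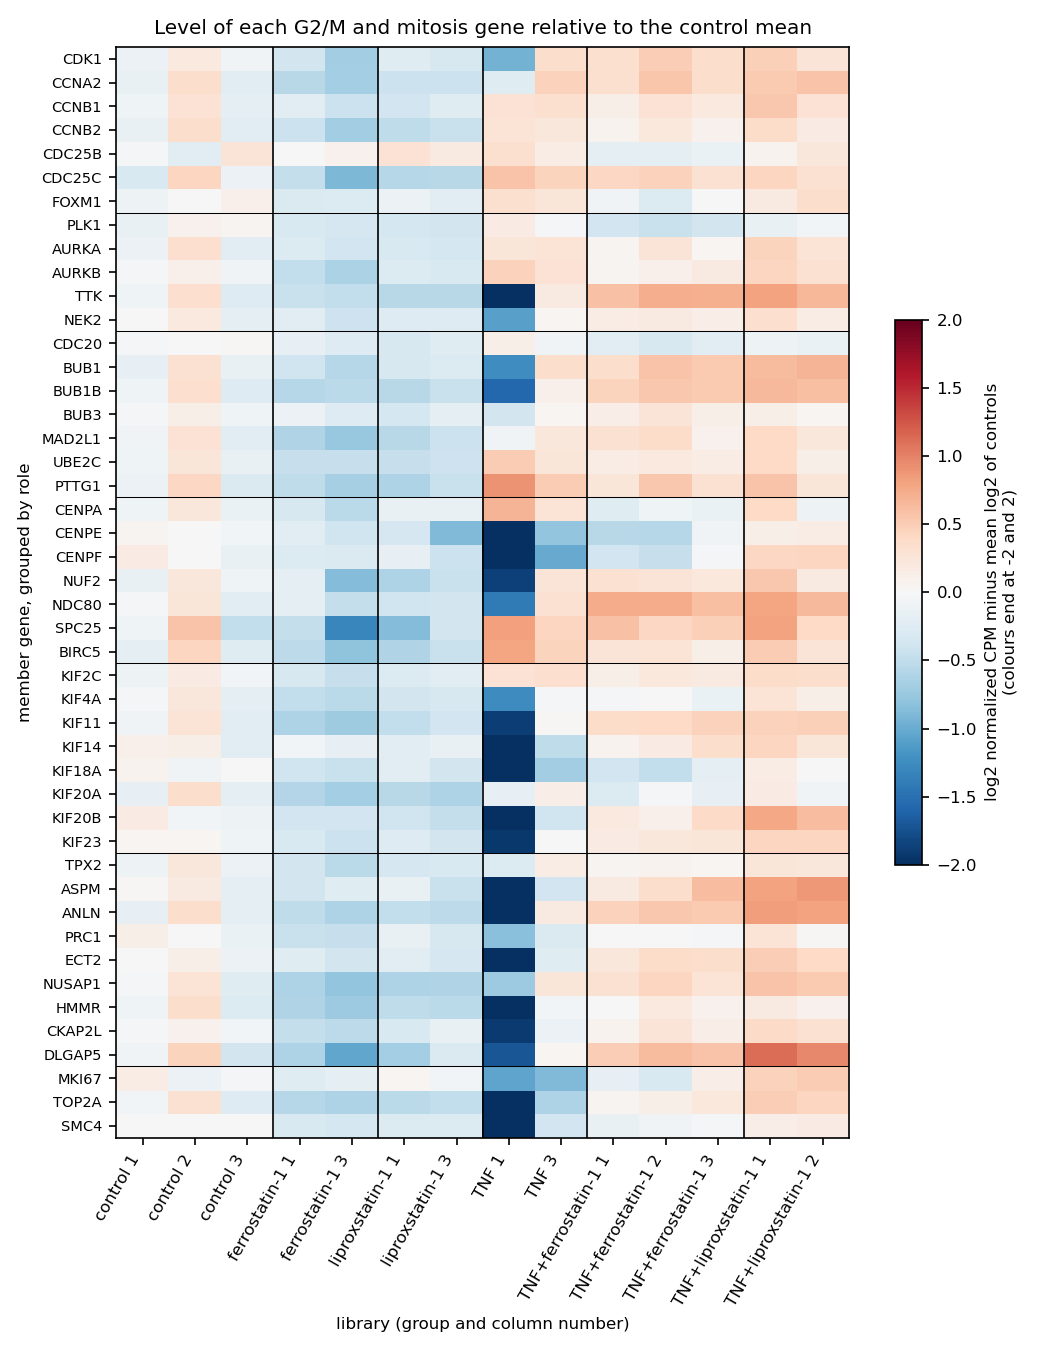
Level of each member (rows, grouped by role) in each of the 14 libraries (columns, grouped by treatment), as log2 normalized CPM minus the mean log2 of the controls, with colours ending at -2 and 2. The ferrostatin-1 and liproxstatin-1 columns are below the control mean in nearly every row, TNF library 1 is far below it in the rows of long genes, and the columns of TNF with either inhibitor lie mostly above it.

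TNF alone changed few of these genes by the test, and not in 1 direction. MKI67, the antigen Ki-67 that coats mitotic chromosomes, fell, as did CENPF, a large kinetochore protein, and PRC1, which bundles the central spindle. AURKB, the kinase of the chromosomal passenger complex, KIF2C, a kinesin that takes microtubules apart at centromeres, and PTTG1, the securin that holds separase inactive, rose. Thus 6 of 46 members were called, 3 in each direction, by edgeR's quasi-likelihood test at an adjusted p below 0.05, and 14.7% of all genes tested were called in this comparison. The share among members was near that background, so the count says nothing particular about them. The median log2 change of the members was -0.29, against -0.02 over all genes.

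MKI67 had 376, 311 and 334 CPM in the controls and 163 and 184 CPM with TNF. Both TNF libraries lay below all controls, and the fall was -0.97 ± 0.13 on the log2 scale (SE; adjusted p = 3.94e-04). CENPF had 135, 121 and 109 CPM in the controls and 14.9 and 60.7 CPM with TNF. It changed by -1.69 ± 0.41 (adjusted p = 0.0189), and TNF library 1 was far below TNF library 3. PRC1 had 139.9, 129.7 and 117 CPM in the controls and 72.2 and 105 CPM with TNF, a change of -0.54 ± 0.14 (adjusted p = 0.0281). AURKB rose from 41.0, 45.1 and 40.3 CPM in the controls to 57.7 and 51.4 CPM with TNF (0.37 ± 0.10, adjusted p = 0.0267). PTTG1 had 37.7, 54.3 and 33.4 CPM in the controls and 76.0 and 58.0 CPM with TNF (0.68 ± 0.20, adjusted p = 0.0397). KIF2C had 84.3, 101.6 and 86.8 CPM in the controls and 110.4 and 114 CPM with TNF (0.31 ± 0.09, adjusted p = 0.0485). For each of these 3 genes both TNF libraries lay above all 3 controls. The same held for 9 of the 46 members and for 4586 of all 22179 genes. Both TNF libraries lay below all controls for 12 members and 4411 genes. Over the 22 alternative settings described below, the call was lost in 10 for AURKB, 15 for PTTG1 and 17 for KIF2C. Among the falls it was lost in 5 for PRC1, 2 for CENPF and 0 for MKI67.

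By role, the direction with TNF alone differed. All 3 genes of proliferation and chromosome structure and all 9 of spindle assembly and cytokinesis had negative values, as did 7 of 8 kinesins, against 1 of the 7 genes of the CDK1 switch. These directions changed without TNF library 1: spindle assembly and cytokinesis then had 5 negative and 4 positive values (median -0.07, against -0.63 with both libraries) and the kinesins 4 of each (median -0.02, against -0.65), while the 3 genes of proliferation and chromosome structure were still negative (median -0.64) and all 7 of the CDK1 switch were positive. TOP2A, the topoisomerase that untangles replicated chromosomes, had 315, 403 and 274 CPM in the controls but 44.6 CPM in TNF library 1 and 212 in library 3, and missed the threshold (-1.37 ± 0.44, adjusted p = 0.0587). CDK1 was split the same way, with 77.8, 96.3 and 79.9 CPM in the controls, 43.8 in TNF library 1 and 107 in library 3 (-0.17 ± 0.27, adjusted p = 0.741). BIRC5, the survivin subunit of the passenger complex, stood at 86.6 and 68.4 CPM with TNF against 44.3, 67.3 and 42.2 CPM in the controls (0.60 ± 0.19, adjusted p = 0.0558). CCNB1 (0.29 ± 0.14, adjusted p = 0.184), AURKA (0.24 ± 0.14, adjusted p = 0.289), FOXM1 (0.28 ± 0.10, adjusted p = 0.0831), PLK1 (0.07 ± 0.09, adjusted p = 0.700) and CDC20 (0.03 ± 0.08, adjusted p = 0.887) did not pass.

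Leaving out a TNF library changed which members were called. Without TNF library 1 the 6 calls were all falls, of MKI67 (-0.89 ± 0.15, adjusted p = 0.00268), TOP2A (-0.64 ± 0.16), CENPE, the kinetochore motor (-0.78 ± 0.22), CENPF (-1.01 ± 0.17), KIF18A, which dampens chromosome movement (-0.70 ± 0.13) and SMC4, a condensin subunit (-0.39 ± 0.07), with 9.31% of all genes called and a median of 0.12 over the members. Without TNF library 3, so that library 1 alone stood for TNF, 33 members were called, 27 of them lower, and 31.2% of all genes. In both fits the lone TNF library was assumed to vary like the other groups. The members called without TNF library 1 were all among those with the longer transcripts. Member levels fell with length in TNF library 3 too (r = -0.74 with log2 length). The part of length in these calls was not tested, as the length correction was run on all libraries only. MKI67 and CENPF were the members called with both libraries and with library 3 alone. With a correction of each library for transcript length, chosen after these values were seen, 13 members were called, and 17.9% of all genes.

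The inhibitors alone were compared with the controls. With ferrostatin-1, 45 of 46 members had negative values, and the median log2 change was -0.47, against -0.01 over all genes, of which 48.4% were positive. AURKB was the 1 member that passed the test, in which 0.564% of all genes were called. Both ferrostatin-1 libraries lay below all 3 controls for 42 of the 46 members, against 17.6% of all genes. CDC25B, NDC80, SPC25 and KIF14 were the members whose libraries overlapped.

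AURKB had 29.9 and 27.1 CPM with ferrostatin-1, against 41.0 to 45.1 in the controls, a fall of -0.56 ± 0.10 (adjusted p = 0.0343). Over the 22 alternatives its adjusted p ran from 1.71e-05 to 0.313, and it stayed under the threshold in 8 of them. Among those that ended the call were leaving out control library 1 or 2, or either ferrostatin-1 library. MAD2L1, the checkpoint protein that sequesters CDC20, stood at 46.7 and 41.9 CPM against 67.3, 86.1 and 60.5 CPM in the controls, and NUSAP1, a microtubule binder, at 72.2 and 64.2 CPM against 108, 135 and 94.1 CPM. BIRC5 stood at 35.0 and 28.7 CPM (-0.69 ± 0.20, adjusted p = 0.158). These 3 were separated from the controls and not called. PLK1 (-0.33 ± 0.10, adjusted p = 0.159), CCNB1 (-0.33 ± 0.14, adjusted p = 0.361), AURKA (-0.35 ± 0.14, adjusted p = 0.355), CDC20 (-0.21 ± 0.08, adjusted p = 0.321), FOXM1 (-0.29 ± 0.10, adjusted p = 0.252), CDK1 (-0.53 ± 0.27, adjusted p = 0.480), TOP2A (-0.61 ± 0.43, adjusted p = 0.633) and MKI67 (-0.22 ± 0.12, adjusted p = 0.528) had values in the same direction.

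The spread assumed for these libraries came from all groups, TNF included. Without TNF library 1, or without TNF library 3, 22 members were called with ferrostatin-1, all lower, while 3.39% of all genes were called without library 1. The 22 included KIF11, the motor that pushes spindle poles apart (-0.68 ± 0.12, adjusted p = 0.0114), NUSAP1 (-0.72 ± 0.12, adjusted p = 0.0105), SMC4 (-0.33 ± 0.06, adjusted p = 0.0115) and AURKB (-0.56 ± 0.08, adjusted p = 0.00556). DESeq2 called 10 members and 4.81% of the 16574 genes to which it gave an adjusted p, and limma voom 19 members and 7.23% of all genes.

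With liproxstatin-1 alone no member was called. Again 45 of 46 members were negative, with a median of -0.35 against -0.02 over all genes, and 0.0586% of all genes were called by edgeR. At an unadjusted p below 0.05 there were 17 members and 12.0% of all genes. DESeq2 called 3 members and 2.45% of the 20871 genes to which it gave an adjusted p, and limma voom 12 members and 6.60% of all genes. Both liproxstatin-1 libraries lay below every control for 40 members, against 17.9% of all genes. AURKB had 34.6 and 34.1 CPM (-0.29 ± 0.10, adjusted p = 0.279) and PLK1 95.1 and 93.4 CPM against 109, 128 and 126 CPM in the controls (-0.36 ± 0.10, adjusted p = 0.192). MKI67 was within the controls, at 348 and 326 CPM (-0.01 ± 0.12, adjusted p = 0.987). NUSAP1 was called without TNF library 1 (-0.62 ± 0.12, adjusted p = 0.0465), when 0.694% of all genes were. The comparisons of both inhibitors use the same 3 controls, in which the members' mean log2 level ran from -0.15 in control library 3 to 0.20 in control library 2 around their mean.

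TNF given on top of an inhibitor was compared with that inhibitor alone, and here every member that passed the test rose. These 2 comparisons use no TNF-only and no control library. In ferrostatin-1, TNF raised 15 of 46 members and lowered none, with 18.1% of all genes called and 8.76% called higher. The members' median was 0.62, against 0.02 over all genes. In liproxstatin-1, TNF raised 18 members and lowered none, with 14.6% of all genes called and 7.57% called higher, and the median was 0.72 against 0.06. Of the called members 14 were called in both, which is 93.3% of the 15 and 77.8% of the 18. Over all genes, 1203 genes were called higher in both, 61.9% of those called higher in ferrostatin-1 and 71.6% of those in liproxstatin-1.

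**Figure D3:**
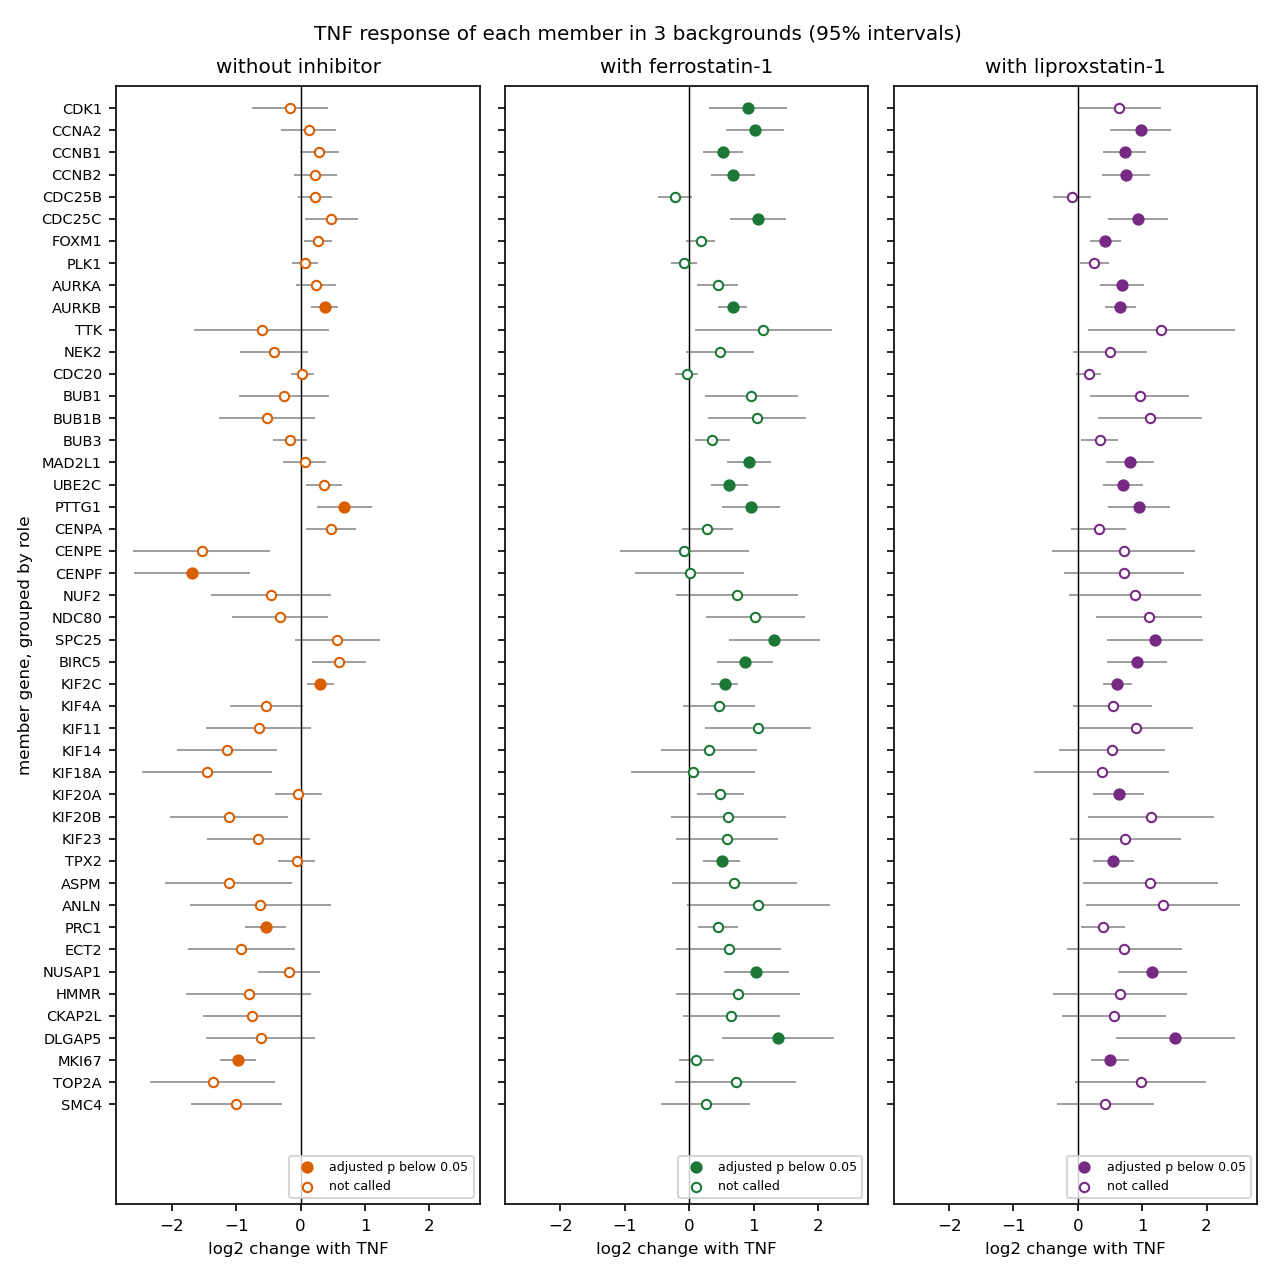
Log2 change with TNF of each member without inhibitor (left), with ferrostatin-1 (middle) and with liproxstatin-1 (right). Points are edgeR estimates, lines their 95% intervals, and filled points had an adjusted p below 0.05. Filled points lie on both sides of 0 on the left (3 higher, 3 lower) and to the right of 0 with ferrostatin-1 (15) and liproxstatin-1 (18).

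Of the 7 genes of the CDK1 switch 5 rose in each inhibitor, and without TNF library 1 there were 5 in ferrostatin-1 and 6 in liproxstatin-1. CCNA2, cyclin A, went from 57.5 and 52.3 CPM with ferrostatin-1 to 104, 123 and 108 CPM with TNF and ferrostatin-1 (1.02 ± 0.20, adjusted p = 0.00475), and from 62.6 and 62.0 to 121 and 124.5 CPM in liproxstatin-1 (0.98 ± 0.22, adjusted p = 0.0117). The groups did not overlap for CCNA2 in either inhibitor. CCNB1, cyclin B1, went from 115 and 98.4 to 144, 162 and 153 CPM in ferrostatin-1 (0.52 ± 0.14, adjusted p = 0.0244). In liproxstatin-1 it went from 102 and 112.5 to 194 and 161.5 CPM (0.73 ± 0.15, adjusted p = 0.00885). CDC25C, the phosphatase that activates CDK1 at entry into mitosis, rose by 1.07 ± 0.20 (adjusted p = 0.00318) and 0.93 ± 0.21 (adjusted p = 0.0130). Its 2 liproxstatin-1 libraries both had 13.4 CPM, and the 2 with TNF had 26.6 and 24.6. CCNB2, cyclin B2, rose by 0.69 ± 0.16 (adjusted p = 0.0102) and 0.75 ± 0.17 (adjusted p = 0.0120). CDK1 itself went from 65.3 and 52.2 to 105, 118 and 108 CPM in ferrostatin-1 (0.91 ± 0.28, adjusted p = 0.0399) and from 71.3 and 67.4 to 117 and 100.3 CPM in liproxstatin-1, where it missed the threshold (0.65 ± 0.30, adjusted p = 0.179). FOXM1, the transcription factor of this group, passed the threshold in liproxstatin-1 (0.43 ± 0.11, adjusted p = 0.0221, against 0.18 ± 0.10, adjusted p = 0.273, in ferrostatin-1), and the difference between these 2 responses was not tested. CDC25B, a phosphatase that starts CDK1 activation at centrosomes, had -0.22 and -0.09.

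Among the mitotic kinases, AURKB went from 29.9 and 27.1 to 43.6, 45.3 and 47.8 CPM in ferrostatin-1 (0.68 ± 0.10, adjusted p = 8.40e-04). In liproxstatin-1 it went from 34.6 and 34.1 to 56.8 and 52.0 CPM (0.66 ± 0.11, adjusted p = 0.00225). AURKB was called in all 22 alternatives of both comparisons. AURKA, which matures the spindle poles, rose in liproxstatin-1, from 72.6 and 70.2 to 121 and 108 CPM (0.68 ± 0.16, adjusted p = 0.0135), and in ferrostatin-1 had 0.44 ± 0.14 (adjusted p = 0.0541). PLK1, the kinase that drives entry and spindle assembly, was not called in ferrostatin-1, with 97.6 and 95.2 CPM without TNF and 92.5, 88.2 and 93.7 CPM with it. Its change was -0.08 ± 0.09, with a 95% interval from -0.28 to 0.13. In liproxstatin-1 it had 95.1 and 93.4 CPM without and 109 and 116 CPM with TNF (0.25 ± 0.10, adjusted p = 0.128).

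Of the checkpoint and ubiquitylation genes, MAD2L1, UBE2C and PTTG1 rose in both inhibitors. MAD2L1 reached 86.9, 90.8 and 74.8 CPM with TNF and ferrostatin-1 (0.93 ± 0.16, adjusted p = 0.00187) and 93.3 and 82.9 CPM with TNF and liproxstatin-1, against 48.0 and 52.3 without TNF (0.81 ± 0.17, adjusted p = 0.00795). UBE2C rose by 0.62 ± 0.13 (adjusted p = 0.00638) in ferrostatin-1 and 0.71 ± 0.14 (adjusted p = 0.00644) in liproxstatin-1. PTTG1, with 28.7 and 25.8 CPM in ferrostatin-1, had 48.2, 59.6 and 50.6 CPM after TNF (0.96 ± 0.21, adjusted p = 0.00765), and rose by 0.95 ± 0.22 in liproxstatin-1 (adjusted p = 0.0146). CDC20, BUB1, BUB1B and BUB3 were not called in either inhibitor. CDC20 had 114 and 107 CPM in ferrostatin-1 and 109, 102 and 110.1 CPM with TNF added (-0.04 ± 0.08, 95% interval -0.22 to 0.14), and 0.17 ± 0.09 in liproxstatin-1 (adjusted p = 0.262).

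At the centromere, SPC25, a subunit of the NDC80 complex that holds microtubules, rose by 1.32 ± 0.32 in ferrostatin-1 (adjusted p = 0.0140) and by 1.20 ± 0.34 in liproxstatin-1 (adjusted p = 0.0353). BIRC5 went from 35.0 and 28.7 to 59.8, 60.8 and 54.1 CPM in ferrostatin-1 (0.87 ± 0.20, adjusted p = 0.0101) and from 32.9 and 36.9 to 71.6 and 59.9 CPM in liproxstatin-1 (0.91 ± 0.21, adjusted p = 0.0142). CENPF was not called in ferrostatin-1, at 100.1 and 99.98 CPM without and 93.6, 88.1 and 119.6 CPM with TNF, and was not called in liproxstatin-1, where it went from 108 and 89.95 to 162 and 163 CPM. Among kinesins, KIF2C rose from 72.5 and 65.9 to 98.0, 105 and 102 CPM in ferrostatin-1 (0.55 ± 0.10, adjusted p = 0.00210) and by 0.61 ± 0.10 in liproxstatin-1 (adjusted p = 0.00268), and was called in every alternative of both. KIF20A, a motor of the central spindle, rose by 0.64 ± 0.18 in liproxstatin-1 (adjusted p = 0.0358). Of the 9 genes of spindle assembly and cytokinesis, all of which were called in both inhibitors without TNF library 1, TPX2, NUSAP1 and DLGAP5, which stabilizes spindle fibres near chromosomes, rose in both. NUSAP1 went from 72.2 and 64.2 to 136.5, 150 and 134.7 CPM in ferrostatin-1 (1.04 ± 0.23, adjusted p = 0.00851) and from 72.7 and 73.4 to 165.8 and 160.5 CPM in liproxstatin-1 (1.16 ± 0.25, adjusted p = 0.00901). DLGAP5 rose by 1.38 ± 0.40 (adjusted p = 0.0319) and 1.52 ± 0.43 (adjusted p = 0.0335).

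Of the 3 genes of proliferation and chromosome structure, MKI67 passed the test in 1 of the 2 inhibitors. It was not called in ferrostatin-1, with 288 and 297 CPM without TNF and 304, 274 and 371 CPM with it (0.11 ± 0.12, adjusted p = 0.606). In liproxstatin-1 it rose from 348 and 326 to 469 and 482 CPM (0.50 ± 0.14, adjusted p = 0.0289). TOP2A had 220 and 212 CPM in ferrostatin-1 and 339, 354 and 379 CPM after TNF, and the change of 0.73 ± 0.43 was not called (adjusted p = 0.295), although the groups did not overlap. In all, the libraries with TNF and ferrostatin-1 lay above both ferrostatin-1 libraries for 39 members, against 27.5% of all genes, and below them for PLK1 and CDC25B. Those with TNF and liproxstatin-1 lay above both liproxstatin-1 libraries for 45 members, against 33.8% of all genes. TNF library 1 is in neither comparison, but leaving it out changes the common spread, the filter, the scaling and the adjustment. Without it, 36 members were called higher in ferrostatin-1 (26.5% of the 23647 genes then tested called) and 43 in liproxstatin-1 (23.1% called). The counts fell to 3 without ferrostatin-1 library 3 and to 2 without liproxstatin-1 library 1.

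**Figure D4:**
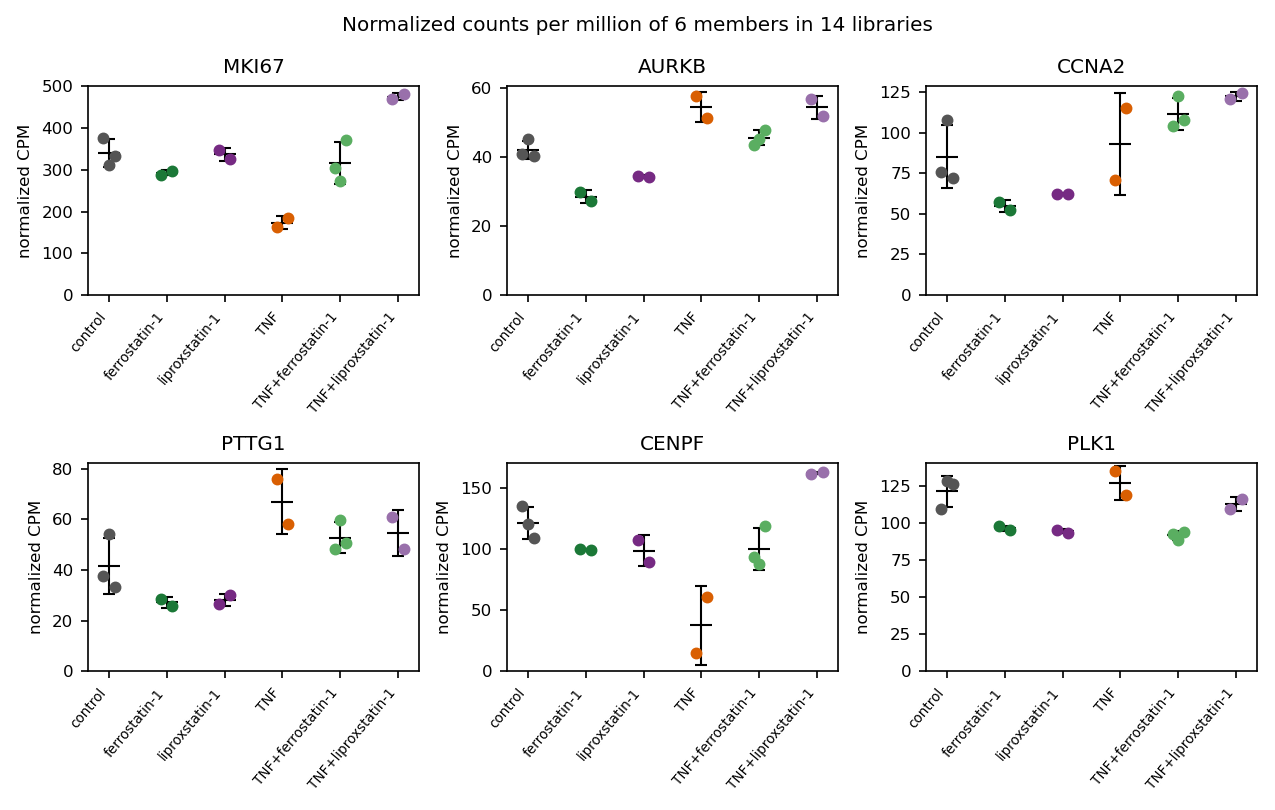
Normalized CPM of 6 members in the 14 libraries, grouped by treatment. Dots are libraries, bars the mean and SD. MKI67 is lowest with TNF (163 and 184) and highest with TNF and liproxstatin-1 (469 and 482), whereas the PLK1 libraries with TNF and ferrostatin-1 (88.2 to 93.7) overlap those with liproxstatin-1 (93.4 and 95.1).

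Adding an inhibitor to TNF was then compared with TNF alone, a comparison that rests on the 2 unlike TNF libraries. For either inhibitor, the members called without TNF library 1 were all among those with the longer transcripts. The part of length in those calls was not tested. With ferrostatin-1, MKI67 rose and PLK1 and FOXM1 fell. The 3 calls among 46 members stand against 5.52% of all genes called, and the members' median was 0.54 against -0.01 over all genes. MKI67 went from 163 and 184 CPM to 304, 274 and 371 CPM (0.87 ± 0.13, adjusted p = 0.00753). PLK1 went from 135 and 119 CPM to 92.5, 88.2 and 93.7 CPM (-0.47 ± 0.09, adjusted p = 0.0233). FOXM1 went from 209.9 and 199 CPM to 161, 139 and 168 CPM (-0.39 ± 0.10, adjusted p = 0.0453). None of these groups overlapped. In this comparison all libraries with ferrostatin-1 lay above both TNF libraries for 24 members and below them for 11. Of all 22179 genes, 4369 lay above and 5263 below in this way. Over the 22 alternatives the rise of MKI67 was not called in 3: limma voom, the groups of the comparison alone and the length correction. The fall of PLK1 was not called in 7 of them, and that of FOXM1 in 18. The falls of PLK1 and FOXM1 were not called without TNF library 1, when 8 members were called, all higher, and 2.49% of all genes: MKI67, TOP2A, CENPF, KIF14, KIF20B, ASPM, ECT2 and SMC4, with log2 changes of 0.31 to 0.78. Without TNF library 3, 34 were called, 28 higher and 6 lower, with 31.2% of all genes.

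With liproxstatin-1 added to TNF, MKI67 was the only member called, at 469 and 482 CPM (1.45 ± 0.14, adjusted p = 0.00160), and 0.343% of all genes were called. This call held in 21 of the 22 alternatives and was lost with the groups of the comparison alone. The levels of MKI67 with TNF and liproxstatin-1 were also above all 3 controls. The members' median was 0.71, against 0.02 over all genes. PLK1 had 109 and 116 CPM (-0.17 ± 0.10, adjusted p = 0.337), FOXM1 191 and 214 CPM (-0.01 ± 0.11, adjusted p = 0.965), AURKB 56.8 and 52.0 CPM (0.00 ± 0.11, adjusted p = 0.993) and TOP2A 458.5 and 439 CPM (1.81 ± 0.48, adjusted p = 0.0859). When TNF library 1 was left out, 10 members were called higher and none lower, with 1.51% of all genes called. They were MKI67 (1.37 ± 0.16), CENPF (1.42 ± 0.18), TOP2A (1.08 ± 0.17), KIF14, KIF18A, KIF20B, KIF23, ASPM, ECT2 and SMC4. Without TNF library 3, 29 were called, all higher, with 28.7% of all genes.

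Whether an inhibitor changed the TNF response was tested directly as an interaction. No member was called for either inhibitor by edgeR, although the values were large: the median over members was 1.04 for ferrostatin-1 and 1.00 for liproxstatin-1, against 0.04 and 0.08 over all genes. Of all genes 0.00451% were called for ferrostatin-1 and 0% for liproxstatin-1. At an unadjusted p below 0.05 there were 31 members for ferrostatin-1, with 19.1% of all genes, and 30 for liproxstatin-1, with 19.5%. DESeq2 called 15 and 16 members, with 9.23% and 9.31% of the 14428 and 13999 genes to which it gave an adjusted p. Limma voom called 0 and 14 members (0.0541% and 0.933% of all genes). The interaction of MKI67 was 1.08 ± 0.18 for ferrostatin-1 (adjusted p = 0.0544) and 1.47 ± 0.18 for liproxstatin-1 (adjusted p = 0.0519). That of TOP2A was 2.09 ± 0.62 (adjusted p = 0.139) and 2.34 ± 0.64 (adjusted p = 0.136), whereas that of CCNB1 was 0.23 ± 0.20 and 0.44 ± 0.21, and that of CDC20 -0.06 ± 0.12 and 0.14 ± 0.12.

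Without TNF library 1 the interaction was called for 11 members with ferrostatin-1 (0.918% of all genes) and for 13 with liproxstatin-1 (1.01% of all genes), all positive, and the members' medians were 0.64 in both. Called for both were MKI67, TOP2A, CENPF, KIF20B, KIF23, ASPM, ECT2 and SMC4. TOP2A had 1.36 ± 0.21 for ferrostatin-1 (adjusted p = 0.0133) and 1.62 ± 0.21 for liproxstatin-1 (adjusted p = 0.00604), and SMC4 0.64 ± 0.09 (adjusted p = 0.0124) and 0.81 ± 0.10 (adjusted p = 0.00494). Without TNF library 3 there were 31 calls for ferrostatin-1, 30 of them positive, and 31 for liproxstatin-1, all positive, with 26.0% of all genes called in each. The 2 interactions share the control and TNF libraries. The members called for both without TNF library 1 were all among those with the longer transcripts, and the part of length was not tested.

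The 2 inhibitors, both radical-trapping antioxidants of different chemical scaffolds, were compared at the same dose of 20 uM and the same time over the 46 members, without and with TNF, with p-values adjusted over all 22179 genes of each comparison. Without TNF no member differed past the threshold by edgeR, by DESeq2 or by limma voom. EdgeR and voom called 0.104% and 1.36% of all genes, and DESeq2 1.08% of the 20441 genes to which it gave an adjusted p. At an unadjusted p below 0.05 there was 1 member, with 6.51% of all genes. It was AURKB, higher with liproxstatin-1 by 0.27 ± 0.11 (95% interval 0.03 to 0.51, adjusted p = 0.679). Of the 46 members 35 had higher values under liproxstatin-1 and 11 lower ones, with a median difference of 0.08. Both liproxstatin-1 libraries lay above both ferrostatin-1 libraries for 20 members and below them for 3. Of all 22179 genes, 4688 lay above and 4673 below in this way. The interval was -0.26 to 0.19 for PLK1, -0.33 to 0.34 for CCNB1, -0.27 to 0.13 for CDC20 and -0.09 to 0.50 for MKI67, while for CENPE and DLGAP5 it ran as far as -1.38 and 1.25. A difference of 1 on the log2 scale is thus outside the interval for the first 4 genes and inside it for CENPE and DLGAP5.

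With TNF, 43 of 46 members had higher values under liproxstatin-1 than under ferrostatin-1, by a median of 0.18 against 0.00 over all genes, and none was called by edgeR, when 0.766% of all genes were. At an unadjusted p below 0.05 there were 5 members, all higher with liproxstatin-1, and 8.60% of all genes. DESeq2 called 1 member and 2.18% of the 21301 genes to which it gave an adjusted p, and limma voom 4 members and 3.67% of all genes. MKI67 was the nearest to the threshold, with 304, 274 and 371 CPM with ferrostatin-1 against 469 and 482 with liproxstatin-1 (0.59 ± 0.12, 95% interval 0.32 to 0.85, adjusted p = 0.0544). FOXM1 (0.38 ± 0.10, adjusted p = 0.162), PLK1 (0.30 ± 0.09, adjusted p = 0.274), CDC25B (0.32 ± 0.12, adjusted p = 0.431) and AURKB (0.26 ± 0.10, adjusted p = 0.437) were the others. Both liproxstatin-1 libraries lay above all 3 ferrostatin-1 libraries for 26 members, against 18.0% of all genes, and below them for BUB3, a checkpoint protein. Leaving out TNF library 1 gave 4 called members, all higher with liproxstatin-1, with 1.73% of all genes: MKI67 (0.59 ± 0.11, adjusted p = 0.0199), CENPF (0.70 ± 0.12, adjusted p = 0.0150), KIF18A (0.44 ± 0.10) and KIF20B (0.48 ± 0.10).

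**Figure D5:**
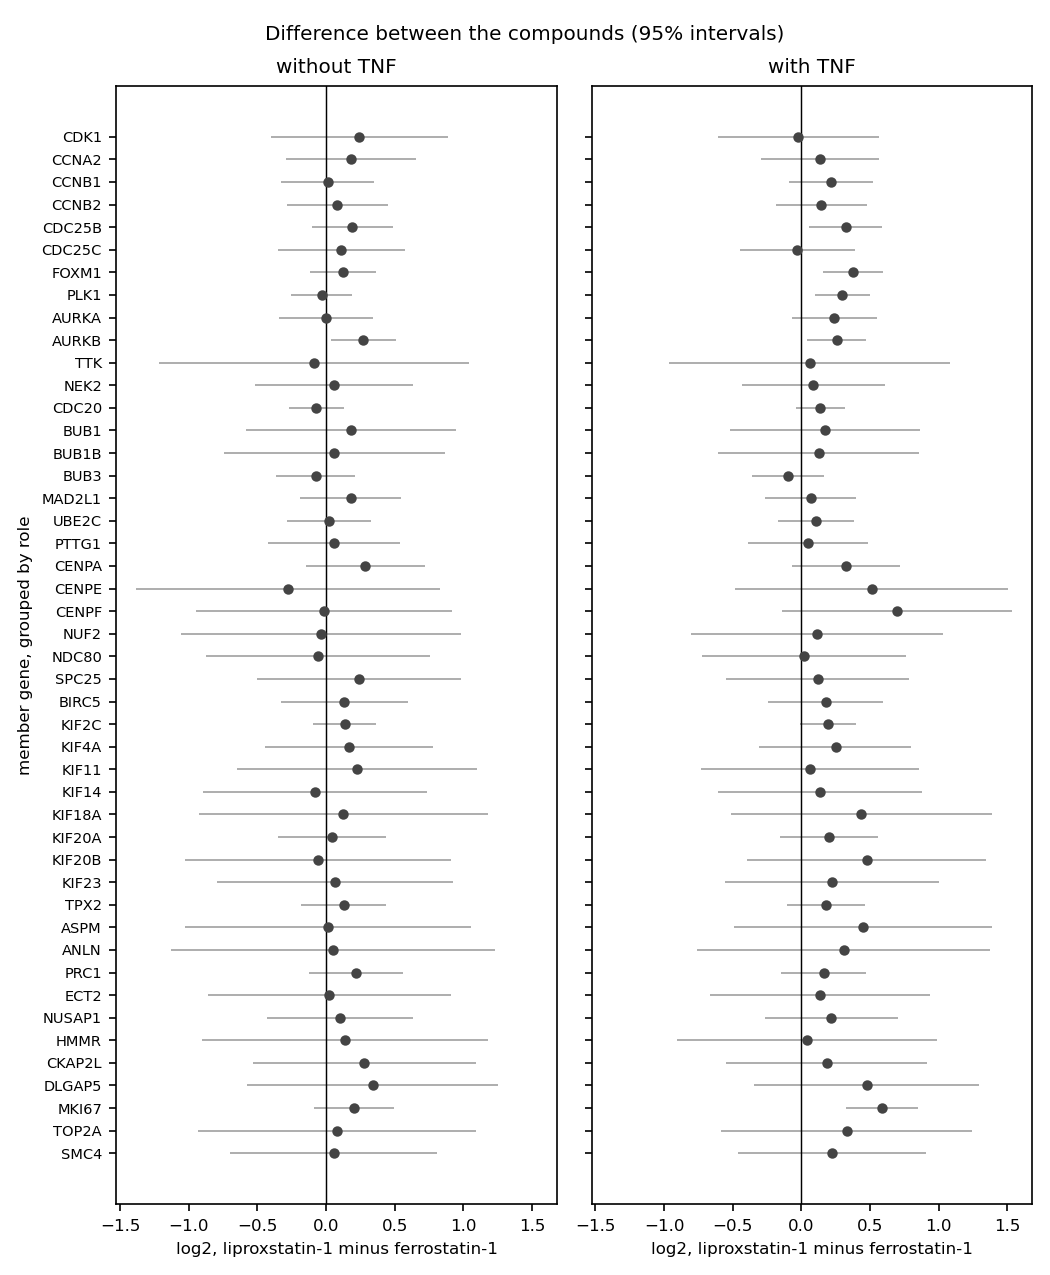
Difference of each member between liproxstatin-1 and ferrostatin-1 (log2, liproxstatin-1 minus ferrostatin-1) without TNF (left) and with TNF (right). Points are edgeR estimates and lines 95% intervals. Without TNF 35 of 46 points lie above 0, with TNF 43 of 46, and none reached an adjusted p below 0.05.

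The other genes of the pathway were read from lists kept apart from the 46. Of 69 further G2/M genes, 9 were lower with ferrostatin-1 and none higher, with a median of -0.55, and 0.564% of all genes were called. None was called with liproxstatin-1 (median -0.40), with 0.0586% of all genes. With TNF added, 37 rose in ferrostatin-1 and 35 in liproxstatin-1, none fell, and the medians were 0.63 and 0.66. Of all genes 8.76% and 7.57% were called higher in these comparisons. NCAPH, a condensin subunit, rose by 1.35 ± 0.15 in ferrostatin-1 (adjusted p = 1.29e-04) and by 1.14 ± 0.16 in liproxstatin-1 (adjusted p = 9.60e-04). INCENP, the scaffold of AURKB, rose by 1.06 ± 0.14 and 1.13 ± 0.15 (adjusted p = 3.19e-04 and 5.91e-04). WEE1, the kinase that holds CDK1 inactive, rose in ferrostatin-1 (0.46 ± 0.14, adjusted p = 0.0472) and was just short of the threshold in liproxstatin-1 (0.49 ± 0.16, adjusted p = 0.0579). TNF alone raised 8 of the 69 and lowered 2, a share near the 14.7% of all genes called. CKAP5, a microtubule polymerase, was 1 of the 2, with 278, 264.5 and 262 CPM in the controls, 53.9 in TNF library 1 and 153 in library 3 (-1.37 ± 0.30, adjusted p = 0.0112). Leaving out library 1 gave the 69 a median of 0.14, with 49 positive and 20 negative values, and CKAP5 a change of -0.80 ± 0.09. The part of transcript length in the values of CKAP5 was not tested.

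MYBL2, the activator that joins MuvB on these promoters, was called in both inhibitors. It had 228, 245 and 230.3 CPM in the controls, 147 and 148 CPM with ferrostatin-1 (-0.67 ± 0.08, adjusted p = 0.00377) and 157 and 154 CPM with liproxstatin-1 (-0.60 ± 0.08, adjusted p = 0.0230). With TNF it rose by 0.51 ± 0.08 in ferrostatin-1 (adjusted p = 0.00112) and by 0.47 ± 0.09 in liproxstatin-1 (adjusted p = 0.00390), to levels of 197 to 223 CPM. With TNF alone it had 233 and 219 CPM (-0.06 ± 0.08, adjusted p = 0.694). Of the 15 regulators of DREAM and MuvB, 9 rose and 2 fell with TNF in ferrostatin-1, with 18.1% of all genes called. In liproxstatin-1 5 rose, with 14.6% of all genes called. E2F4, the repressive factor of DREAM, was 1 of the 2 that fell in ferrostatin-1 (-0.28 ± 0.09, adjusted p = 0.0442).

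CDKN1A, the CDK inhibitor p21, varied within the controls, at 62.9, 27.7 and 71.7 CPM, and was not called in any comparison. Its highest levels were with liproxstatin-1, 113 and 108 CPM (1.03 ± 0.31, adjusted p = 0.222). The control library in which CDKN1A was lowest, library 2, was also the one in which 39 of 46 members lay above the control mean. That library differed from the other controls over all genes (chi-square per degree of freedom 45.8 and 74.2, against 19.7 between libraries 1 and 3). It is 1 library, and a relation of CDKN1A to the members was not tested. Of 13 CDK inhibitors and p53 targets, 3 (23.1%) fell with TNF in each inhibitor and none rose. Of all genes 18.1% were called in ferrostatin-1 and 14.6% in liproxstatin-1, so the count says nothing particular about this short list. The 3 were GDF15, a stress cytokine, by -2.33 ± 0.27 and -2.39 ± 0.31, GADD45A by -1.16 ± 0.17 and -1.16 ± 0.19, and CDKN2B, the inhibitor p15, by -1.44 ± 0.34 and -1.90 ± 0.39.

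Cohesin holds sister chromatids together. Of 9 cohesin genes 4 fell with TNF alone, when 14.7% of all genes were called. Among them were NIPBL (-1.63 ± 0.34, adjusted p = 0.00861) and SMC3 (-1.54 ± 0.35, adjusted p = 0.0134). When ferrostatin-1 was added to TNF 4 rose, with 5.52% of all genes called. The TNF libraries 1 and 3 had 15.1 and 46.6 CPM of NIPBL and 15.6 and 52.5 CPM of SMC3, against 78.8 to 107 and 90.5 to 107 CPM in the controls. With library 1 left out, 8 of the 9 had negative values with TNF alone (median -0.57, NIPBL -1.03 ± 0.15, SMC3 -0.91 ± 0.10). All 9 had positive values when ferrostatin-1 was added (median 0.55). TNF library 3 alone stood for TNF there, and the part of transcript length in these values was not tested. In each inhibitor TNF raised 1 of the 9, SMC1A (0.48 ± 0.12, adjusted p = 0.0159, and 0.48 ± 0.13, adjusted p = 0.0279). Of 17 genes of the anaphase-promoting complex and its partners none was called with an inhibitor alone. With TNF 1 rose and 2 fell in ferrostatin-1 and 1 fell in liproxstatin-1, against 18.1% and 14.6% of all genes called. Of 34 S phase genes, 14 were lower with ferrostatin-1 (median -0.69), against 0.564% of all genes called. With TNF 32 rose in ferrostatin-1 (median 1.06) and 25 in liproxstatin-1 (median 0.79), none falling. Of all genes 8.76% and 7.57% were called higher there. RRM2, a subunit of ribonucleotide reductase, was lower with ferrostatin-1 by -0.92 ± 0.10 (adjusted p = 0.00309) and rose with TNF in it by 1.06 ± 0.10 (adjusted p = 4.69e-05).

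Some members overlap other expressed genes, and whether counting used strand is not stated. CCNA2 overlaps EXOSC9, PLK1 overlaps ERN2, KIF20A overlaps CDC23, NUSAP1 overlaps OIP5, SMC4 overlaps IFT80 and TRIM59, FOXM1 overlaps ITFG2 and RHNO1, KIF4A overlaps PDZD11, CENPA overlaps SLC35F6, SPC25 overlaps NOSTRIN, BUB1B overlaps PAK6, ANLN overlaps KIAA0895, NUF2 overlaps RGS5, and PRC1 overlaps PRC1-AS1 and AC068831. Their counts could hold reads of these neighbours. MKI67 (chromosome 10, 128096659 to 128126423, minus strand, as the count table gives positions) and AURKB (chromosome 17, 8204733 to 8210600, minus strand) overlap no other gene of the table.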

How the data were processed

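RNA of 14 HT-29 libraries was selected by poly(A) and sequenced as strand-marked, paired reads, per the labels' protocols. The authors deposited 1 table with whole-number counts per gene and FPKM values per gene for each library. The submitters' processing notes list edgeR, DESeq2, cutadapt 1.9, StringTie 1.3.4d and HISAT2 2.0.4, without their role. For the genome build, the annotation, the counter and strandedness of counting, nothing is stated. Column names gave each library its group. In the ferrostatin-1, liproxstatin-1 and TNF groups the column numbers 1 and 3 do not match the sample titles, so these columns were placed by group alone and their 6 FPKM columns were not used.

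Counts were fitted with edgeR 4.0.16 (R 4.3.3), as 1 quasi-likelihood model of 6 groups with TMM scaling after edgeR's filter on low counts by group, for 11 comparisons. P-values were adjusted by Benjamini and Hochberg over all 22179 genes, and an adjusted p below 0.05 was a call. Standard errors are the log2 change divided by the root of F. CPM are counts over TMM-scaled library sizes, and marker sums use total counts. Log2 levels per library use a prior count of 2. The deposited FPKM served only to compare levels between genes. The fit was tested on simulated data with 200 changed genes. Transcript lengths and promoter windows came from GENCODE v29 and RefSeq (GRCh38.p14).

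The 22 alternatives were RLE scaling, no filter, a filter of 1 CPM in 3 libraries, DESeq2 1.42.0, limma 3.58.1 voom with quality weights, the groups of a comparison alone, the replicate number as a block, each library left out in turn, and a loess correction for transcript length (span 0.5, 21751 genes), which was chosen after seeing the data. Members were named where called, up to 2 per role and comparison by adjusted p, with CCNB1, CDK1, PLK1, AURKA, AURKB, CDC20, MKI67, TOP2A, BIRC5 and FOXM1 always. Other genes were named from the lists, up to 3 per list and comparison, with CDKN1A, WEE1, MYBL2 and E2F4 always. Members named as calls without TNF library 1, as ends of a range or as exceptions were picked once their values had been seen. The members and lists were chosen with earlier results of these data known. Figures were drawn with matplotlib 3.10.9.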

Additional observations from a re-analysis of the deposited data

How the results depend on the processing

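Counts of called members depended on the tool and on single libraries. Of 2574 single-member values under the alternatives, 2292 kept their side of the threshold, 202 lost a call and 80 gained one. None changed sign where the main fit or the alternative called the member. Changes of sign without a call were not counted, such as that of CDK1 with TNF alone when TNF library 1 was left out. For TNF against control (6 called), no filter gave 3, the filter of 1 CPM in 3 libraries 12, DESeq2 16, the groups alone 1 and the length correction 13. For ferrostatin-1 (1 called), no filter, the replicate block and the groups alone gave 0, DESeq2 10 and voom 19, and for liproxstatin-1 (0 called) DESeq2 gave 3 and voom 12. For TNF with ferrostatin-1 against TNF (3 called), the strict filter gave 7, DESeq2 23, voom 0, the replicate block 1, the groups alone 0 and the length correction 11. For TNF with liproxstatin-1 against TNF (1 called), DESeq2 gave 18, voom 7, the groups alone 0 and the length correction 5. For liproxstatin-1 against ferrostatin-1 with TNF (0 called), the strict filter and DESeq2 gave 1, voom 4 and the groups alone 8. For TNF within ferrostatin-1 (15 called), DESeq2 gave 23, voom 35, and the groups alone 38, of which 1 was lower. For TNF within liproxstatin-1 (18 called), voom gave 42, the replicate block 8 and the groups alone 43. For the interaction with ferrostatin-1 (0 called), the strict filter gave 1 and DESeq2 15, and for that with liproxstatin-1 (0 called), no filter and the strict filter gave 1, DESeq2 16 and voom 14. The share of all genes called moved with the setting too. For ferrostatin-1 it was 0.564% by edgeR, 4.81% by DESeq2 (of 16574 genes) and 7.23% by voom. For most other settings these shares are not given here, so the counts are not read as a result about the members. The cause of these differences was not tested.

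With each library left out in turn, the count ran from 1 to 33 for TNF, 0 to 22 for ferrostatin-1, 0 to 1 for liproxstatin-1, 1 to 34 and 1 to 29 for ferrostatin-1 and liproxstatin-1 added to TNF, 0 to 0 between the inhibitors alone, 0 to 4 between them with TNF, 3 to 36 and 2 to 43 for TNF within ferrostatin-1 and liproxstatin-1, and 0 to 31 for each interaction. Every highest count above 0 came without a TNF library. The shares of all genes called rose in those fits too, as given with the results. No pairing by number was seen (28 pairs with the same number, r from -0.096 to 0.128, 1 over 0.1). In groups of 2 libraries the deviations from the group mean mirror each other. These r are therefore not independent and cannot decide whether the numbers pair libraries. The replicate block gave 5 calls for TNF and 11 for TNF within ferrostatin-1. RLE scaling moved the median of all genes by at most 0.017. Groups of 2 or 3 libraries limit the precision of these tests, and the effect of depth was not tested.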
